A study of Mus musculus with 19 samples.

Results

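Lungs of ovalbumin (OVA)-challenged mice with 1 intact copy of Has2 (Has2+/-) were compared, gene by gene, with lungs of OVA-challenged wild-type (WT) mice. Has2 encodes hyaluronan synthase 2, the membrane enzyme that spins out long, high-molecular-weight chains of hyaluronan, a sugar polymer of the extracellular matrix that holds water and is bound by receptors such as CD44 and LYVE1. OVA sensitisation followed by repeated intranasal challenge is a widely used mouse model of allergic asthma, in which eosinophils enter the airways, macrophages take on the alternatively activated state, airway epithelium turns to mucus production and the airway wall is remodelled. The comparison was chosen by its labels and not by any measured value. It is between 10 of the 19 libraries of the study, 5 of Has2+/- OVA and 5 of WT OVA lungs, and all 19 entered the fit, which shares 1 estimate of the spread.

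All mice were female Balb/c, 6 to 8 weeks old when taken into the experiment and older when lungs were taken. The Has2 deletion had been crossed to Balb/c for at least 8 generations. The heterozygotes lack 1 copy in every cell of the body. OVA mice were sensitised with 100 µg of OVA and then received 10 µg intranasally in each challenge over 8 weeks. Control mice, 5 WT and 4 Has2+/-, received saline, and lungs were taken 24 h after the last challenge. RNA of whole-lung tissue was sequenced, so fewer cells of a type and less RNA per cell cannot be told apart. The genes of lung epithelium were abundant in every library, with 8210 to 10200 CPM of Sftpc, the surfactant protein C of alveolar type 2 cells, in the OVA lungs. CPM are counts scaled to a common library size, with each library's normalisation factor applied. The OVA libraries held 4663153 to 6246712 counts each, and they are named by their running number in the table, 10 to 14 for WT OVA and 15 to 19 for Has2+/- OVA. Values listed for 5 libraries follow that order.

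Some OVA libraries stood apart, and 2 labelled WT OVA held the levels of the other genotype for genes of 1 cluster. Psca, which encodes a lipid-anchored surface protein and lies 18 megabases from Has2 on chromosome 15, was at 0 in all 5 WT saline libraries and at 4.34 to 5.37 CPM in the 4 Has2+/- saline libraries. In the OVA lungs labelled WT its CPM was 0.212, 0.184, 3.48, 5.04 and 0.546, and in the Has2+/- OVA lungs it was 4.64, 4.06, 4.19, 3.44 and 5.56. The libraries labelled WT OVA 12 and 13 therefore held the level of the heterozygotes. Ly6d and Ly6e, of the same gene cluster, had the same order: Ly6e was at 191, 183, 366, 353 and 231 CPM in the libraries labelled WT OVA against 315 to 397 in Has2+/- OVA. Has2 itself, at 1.02 and 1.57 CPM in these libraries, was too low to settle their genotype, which was not resolved. Libraries 12 and 13 were singled out by the values of this cluster, so the differences of its genes without them are no test. Library 18 of Has2+/- OVA held 19.4 CPM of Dntt, the DNA polymerase of immature lymphocytes in the thymus and marrow, where the other OVA libraries held at most 0.554, and it also held skeletal muscle genes. Library 19 held 132 CPM of the clock gene Dbp against at most 30.2 in the other OVA libraries, and 10400 CPM summed over the mitochondrially encoded genes against 5590 to 6970.

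**Figure D1:**
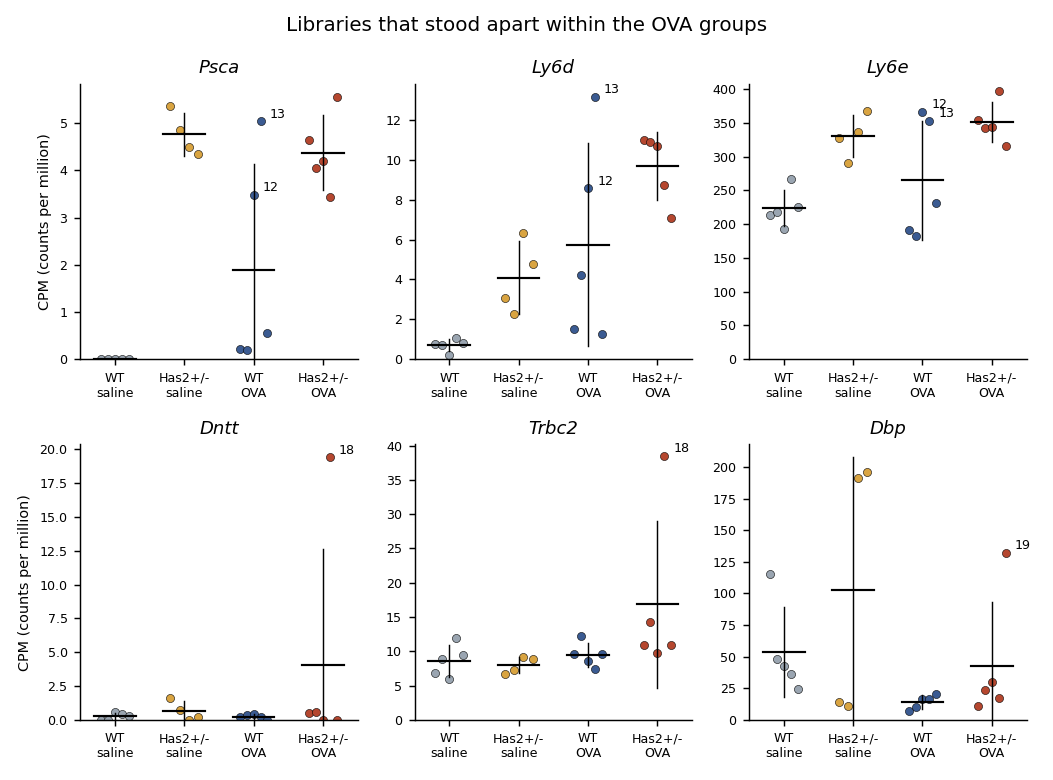
Libraries that stood apart. Each point is 1 library, with its level in CPM on the vertical axis and the 4 groups on the horizontal axis; lines give the mean and SD of a group, the SD drawn down to 0 at most. Libraries 12 and 13, labelled WT OVA, lie with the Has2+/- groups for Psca, Ly6d and Ly6e, library 18 holds 19.4 CPM of Dntt and 38.5 CPM of Trbc2, and library 19 holds 132 CPM of Dbp.

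The first question was how far 1 copy of Has2 showed in its own RNA. Has2 was close to the detection limit in whole lung, with 33 counts over the 5 WT OVA libraries and 25 over the 5 Has2+/- OVA libraries. Its CPM was 1.49, 1.84, 1.02, 1.57 and 0.364 in WT OVA and 0.640, 0.554, 0.874, 1.41 and 0.767 in Has2+/- OVA. The groups overlapped, and the means of 1.26 ± 0.58 and 0.85 ± 0.34 CPM (SD, n = 5 each) did not differ beyond the spread of the libraries (exact permutation test, two-sided, p = 0.214). The counts do not say which part of the transcript they cover, so they do not check the genotype. Has2 could not be entered in the fit across genes because of its low counts.

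The other hyaluronan genes were mostly level between the genotypes. Of 35 genes for the synthesis, breakdown and binding of hyaluronan, 27 were tested, with a median log2 fold change of -0.01 in Has2+/- OVA against WT OVA. At an unadjusted p under 0.05, which 7.73% of all 14495 genes tested met, 1 was higher and 1 was lower. Hapln3, a link protein that ties hyaluronan to proteoglycans, was at 4.88, 5.52, 2.66, 5.74 and 2.36 CPM in WT OVA and at 2.08, 3.51, 2.10, 1.41 and 1.53 in Has2+/- OVA, a log2 fold change of -1.0 ± 0.33 (SE, adjusted p = 0.447). Itih2, a heavy chain that is transferred onto hyaluronan in inflammation, was higher by 0.55 ± 0.24 (adjusted p = 0.579). The sister synthases Has1 and Has3 had log2 fold changes of 0.12 ± 0.23 (adjusted p = 0.934) and 0.08 ± 0.11 (adjusted p = 0.901), the receptor gene Cd44 -0.04 ± 0.11 (adjusted p = 0.953), and Lyve1 -0.51 ± 0.30 (adjusted p = 0.702).

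Across all 14495 genes, the fit made no call between the OVA genotypes (0% called, edgeR quasi-likelihood test with Benjamini-Hochberg adjustment), where a call required both a fold change over 1.2 and an adjusted p below 0.01. The smallest adjusted p was 0.0696, and 4 genes were below 0.1. The adjusted p beside each gene is from this test, and genes described as higher or lower at p under 0.05 met that limit before adjustment only. At an unadjusted p under 0.05, 544 genes were higher (3.75%) and 576 were lower (3.97%), and DESeq2 called 9 genes, all lower. Pmvk, Atf4, Siah2, Thbs1 and Tmem252, described below with the edgeR adjusted p, were among the 9, so their calls depend on the method. The 2 groups did not overlap in 155 genes that were higher (1.07%) and in 122 that were lower (0.842%). The median size of the genotype difference was 0.101 on the log2 scale, against 0.225 for the OVA response of WT lungs, where the same test called 1733 genes higher (12%) and 1442 lower (9.95%). Of the 30 genes of smallest p, 22 were lower and 8 were higher in Has2+/- OVA. Immunoglobulin segments made up 4 of these 30, heat shock or endoplasmic reticulum (ER) chaperone genes 3, and a predicted gene 1, and the other 22 are described here.

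Among them were genes of amino acid and stress control. Atf4 encodes a transcription factor that switches on amino acid transport and synthesis when translation is held back. Its CPM was 123, 143, 119, 127 and 122 in WT OVA and 103, 105, 111, 98.6 and 103 in Has2+/- OVA. The groups did not overlap, and the log2 fold change was -0.29 ± 0.06 (SE, adjusted p = 0.117). Saline lungs differed by 0.05 (adjusted p = 0.913), and the difference between the OVA and the saline comparison had adjusted p = 1. Chac1, a target of ATF4 that breaks down glutathione, was at 7.85, 15.1, 9.82, 12.3 and 9.28 CPM against 8.80, 6.10, 3.84, 3.60 and 3.45, with 1 Has2+/- library inside the WT range (log2 fold change -1.07 ± 0.25, adjusted p = 0.305). Of 37 genes for tRNA charging and amino acid supply, a group singled out after its values were seen, 6 were lower and none higher at p under 0.05, with a median of -0.03, and without libraries 12, 13, 18 and 19 it was 3. They included Slc3a2, a subunit shared by amino acid transporters (-0.27, adjusted p = 0.31), Slc7a11, its cystine-carrying partner (-0.58, adjusted p = 0.56), and Cth, an enzyme of cysteine synthesis (-0.54, adjusted p = 0.542).

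ATF4 and its partners of the C/EBP family bind a composite site, the C/EBP-ATF response element, and 4 of the promoters that hold its core in these data are shown because their genes were lower in Has2+/- OVA. Each stretch is 120 bases of the gene's own strand, 5′ to 3′, in GRCm38.p6 (RefSeq). Capitals mark the 8 letters TGATGCAA or their reverse complement TTGCATCA, searched on both strands of a window from 250 bases before to 50 bases after the annotated start.
Chac1, chr2:119350993-119351112, plus strand: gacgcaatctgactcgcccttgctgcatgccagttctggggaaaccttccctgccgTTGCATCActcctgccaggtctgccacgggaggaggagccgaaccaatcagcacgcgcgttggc
Slc7a11, chr3:50443616-50443735, minus strand: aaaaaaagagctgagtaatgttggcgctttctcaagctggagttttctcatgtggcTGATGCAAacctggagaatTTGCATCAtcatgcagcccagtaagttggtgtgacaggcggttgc
Gadd45g, chr13:51846518-51846637, plus strand: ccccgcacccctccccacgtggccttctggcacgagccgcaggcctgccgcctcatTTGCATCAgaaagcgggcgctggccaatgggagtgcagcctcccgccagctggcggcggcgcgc
Atf3, chr1:191183380-191183499, minus strand: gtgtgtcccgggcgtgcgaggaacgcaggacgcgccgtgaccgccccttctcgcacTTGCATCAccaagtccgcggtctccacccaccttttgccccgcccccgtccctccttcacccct
Slc7a11 holds 2 copies, 1 on each strand. The letters were found in 8 of 420 promoters of genes that were lower at p under 0.05 (1.9%), in 2 of 389 of genes that were higher (0.514%), in 68 of 10862 of all genes tested (0.626%), and in 251 of all 27025 promoters of the table (0.929%). A match is a description and not a measured site. Atf3 and Gadd45g, both stress-induced genes, had log2 fold changes of -0.60 (adjusted p = 0.621) and -0.48 (adjusted p = 0.555).

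The other leading genes came from many parts of cell biology. Pmvk, phosphomevalonate kinase of cholesterol synthesis, had the smallest p of the genes described, at 17.4, 19.3, 16.8, 21.6 and 17.1 CPM in WT OVA and 11.5, 8.31, 10.8, 10 and 14 in Has2+/- OVA (log2 fold change -0.76 ± 0.13, adjusted p = 0.0696). Siah2, a ubiquitin ligase of the hypoxia response, was at 21.0, 31.5, 29.9, 30.8 and 28.6 CPM against 17.8, 17.4, 18.2, 18 and 20.3. The groups overlapped for neither gene. Both were also lower in Has2+/- saline lungs, by 0.29 (Pmvk, adjusted p = 0.71) and 0.32 (Siah2, adjusted p = 0.68) on the log2 scale. Tmem252, a transmembrane protein gene, was lower in both settings too (-1.01, adjusted p = 0.215 in OVA and -0.59, adjusted p = 0.654 in saline lungs), as was Zfp366, a zinc-finger gene of dendritic cells (-0.63 and -0.61).

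Cebpd, a C/EBP family gene induced by cytokines and glucocorticoids, was at 108, 96.5, 87.6, 91.7 and 72.2 CPM in WT OVA and 68.2, 49.9, 59.1, 48.8 and 32.0 in Has2+/- OVA, without overlap (-0.82 ± 0.20, adjusted p = 0.31). Ilk, the kinase that joins integrins to the cytoskeleton, differed by only -0.21 ± 0.05 (adjusted p = 0.31) but also without overlap, as did Plxna2, a semaphorin receptor (-0.31), C2cd2l (-0.31) and Ccdc117 (-0.55). Mxd1, which opposes Myc (-0.34), and Naa16, a subunit of an N-terminal acetyltransferase (-0.59, and -0.38 without libraries 12 and 13), were lower with overlapping groups. The largest difference of the 22 was that of Mrgprg, an orphan receptor gene of the Mrg family, at 2.12, 7.0, 3.27, 3.48 and 4.37 CPM against 0.480, 2.03, 1.92, 0.626 and 0.958 (-1.77 ± 0.42, adjusted p = 0.31), a gene at 0 in all WT saline lungs. Of the 6 described genes that were higher, 3 serve cilia and are given with the epithelium, and the others were Aasdh (0.46), Nemp1 of the inner nuclear membrane (0.55) and Sp5, a transcription factor induced by Wnt signals (0.86, adjusted p = 0.31).

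**Figure D2:**
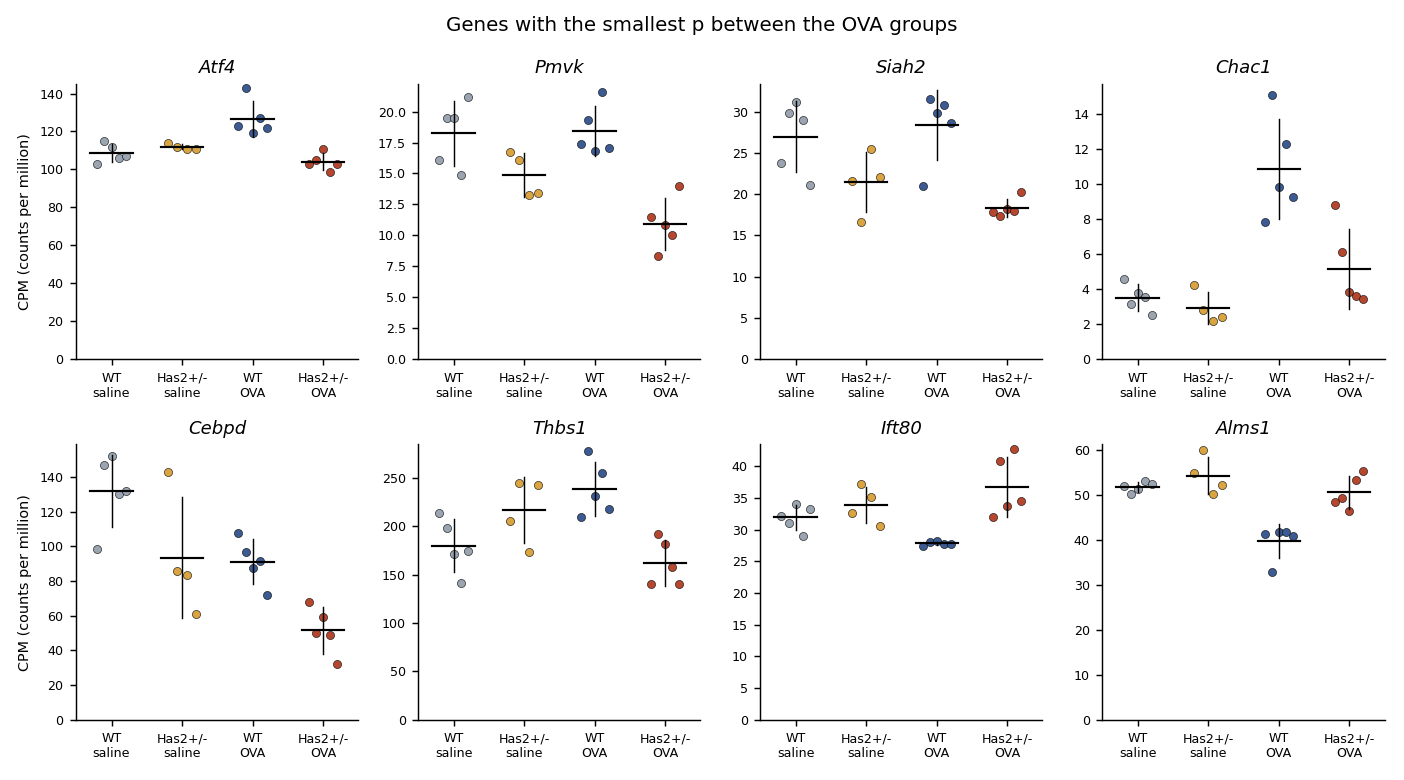
Genes of smallest p between the OVA genotypes. Points are libraries, the vertical axis is CPM, and lines give the mean and SD of each group. Pmvk, Atf4, Siah2, Cebpd and Thbs1 are lower in Has2+/- OVA than in every WT OVA library, Chac1 has 1 library inside the WT range, and Ift80 and Alms1 are higher in every Has2+/- OVA library.

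The lists of cell types and pathways, 67 in all, were compared by their medians. In OVA lungs eosinophils had the lowest median, at -0.50, and skeletal muscle the highest, at 1.36. The median over all genes was 0.004. Over all genes tested, the shares at p under 0.05 were 3.75% higher and 3.97% lower in OVA lungs. In saline lungs the shares were 3.88% higher and 3.06% lower. The plot of list medians shows the lists with the 8 lowest and the 8 highest medians and those of mucus, matrix, smooth muscle, hyaluronan and TGF-beta.

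**Figure D3:**
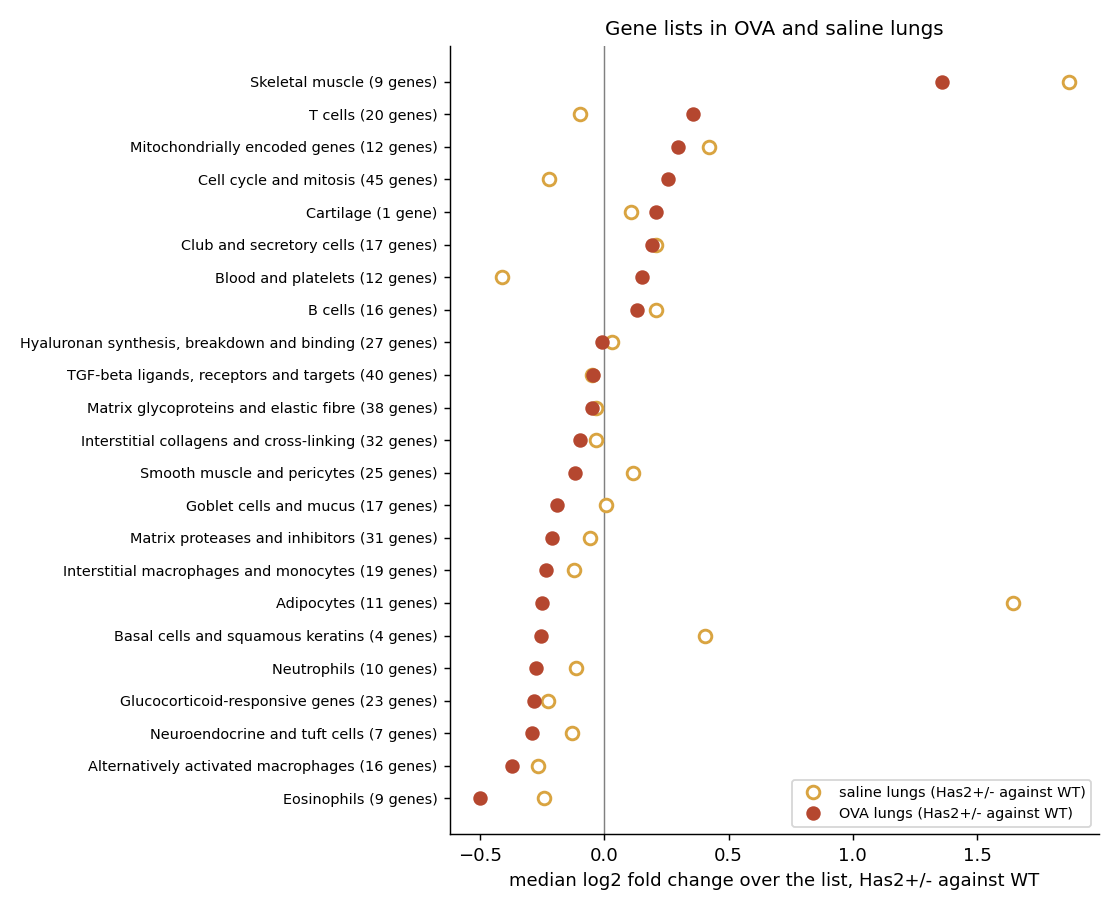
Median log2 fold change of Has2+/- against WT over each gene list, in OVA lungs (filled) and saline lungs (open). The horizontal axis is on the log2 scale and the number of genes tested stands beside each name. Granulocyte, macrophage and matrix protease lists lie below 0 in OVA lungs, the skeletal muscle and T cell medians rest on library 18, and the adipocyte lists of the 2 settings lie on opposite sides of 0.

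Eosinophils, the granulocytes that mark allergic airway disease, had negative log2 fold changes in Has2+/- OVA for all 9 tested markers of 12. At p under 0.05, 4 of the 9 were lower, against 3.97% of all genes. The groups overlapped for every marker, and the list of WT lungs had a median of 1.72 in response to OVA. In saline lungs the genotype median was -0.24, with 6 of 9 markers negative and 1 lower at p under 0.05. Cebpe, the transcription factor of granule maturation, was at 2.12, 5.71, 4.71, 4.87 and 1.64 CPM in WT OVA and 1.28, 1.29, 0.874, 2.35 and 0.383 in Has2+/- OVA (-1.58 ± 0.41, adjusted p = 0.31). Prg2, the major basic protein of the granule, was at 1.27, 5.71, 2.45, 6.78 and 1.27 CPM against 0.960, 2.59, 1.05, 1.72 and 1.15 (-1.24 ± 0.48, adjusted p = 0.542). The highest values of both genes came from libraries 11 and 13.

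Siglecf, a lectin that alveolar macrophages also carry, was lower by 0.38 (adjusted p = 0.64) and Adgre4 by 0.50 (adjusted p = 0.614). The receptors Ccr3, for eotaxins (-0.76, adjusted p = 0.698), and Il5ra, for interleukin 5 (-0.49, adjusted p = 0.688), did not pass the unadjusted threshold. The eosinophil values rest in part on libraries that stood apart: without 12 and 13, 1 of 8 tested markers was lower at p under 0.05 and the median was -0.37, and without 12, 13, 18 and 19, none of 7 was, with a median of -0.23. Epx, the eosinophil peroxidase, was too low for the fit, with 22 counts over WT OVA and 13 over Has2+/- OVA (exact permutation p = 0.183). The cytokine genes Il4 (13 against 23 counts), Il5 (3 against 10) and Il13 (9 against 8) were as sparse, with exact permutation p of 0.206, 0.167 and 0.897, and 5 against 5 libraries allow no p below 0.00794.

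Of 10 neutrophil markers tested, 9 had negative log2 fold changes (median -0.27), 1 of them at p under 0.05. That gene, Retnlg, a resistin-like protein of neutrophils, was at 10.6, 28.4, 20.9, 24.2 and 13.8 CPM against 9.60, 15.3, 4.72, 10 and 4.22 (-1.16 ± 0.31, adjusted p = 0.321) and at 2.66 CPM in WT saline lungs. S100a9 (-0.36, adjusted p = 0.83) and Csf3r (-0.26, adjusted p = 0.853), which mark neutrophils at large, spread widely within both groups. Without libraries 12 and 13, 10 of 11 tested were negative, with a median of -0.57 and 2 lower, and without 12, 13, 18 and 19 the median was the same with none lower.

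Macrophage genes of the alternatively activated type, which are driven by interleukins 4 and 13, had the next lowest median (-0.37), with 13 of 16 genes negative and 4 lower at p under 0.05. Arg1, arginase, was at 29.9, 53.8, 37.0, 47.7 and 15.8 CPM in WT OVA and 8.16, 17.9, 17.8, 6.57 and 25.1 in Has2+/- OVA (-1.30 ± 0.33, adjusted p = 0.31). Chil4, a chitinase-like protein, was at 27.2, 65.5, 46.0, 46.6 and 33.7 CPM against 9.92, 38.8, 15.9, 18.6 and 29.5 (-0.97 ± 0.29, adjusted p = 0.392). For Arg1, 4 WT libraries lay above every heterozygote and library 14 lay below 3 of them. For Chil4 the heterozygote at 38.8 CPM exceeded 2 WT libraries, and that at 29.5 CPM exceeded the WT library at 27.2. Spp1, osteopontin, was lower by 0.51 (adjusted p = 0.394) and Trem2, a lipid receptor of macrophages, by 0.55 (adjusted p = 0.569). Gpnmb and Mmp12, which OVA raised steeply in WT lungs (log2 fold changes of 6.71 and 7.16), were at -0.66 (adjusted p = 0.658) and -0.49 (adjusted p = 0.697) between the genotypes. Without libraries 12 and 13, 5 of 16 genes were lower and the median was -0.33. Without library 11 alone, Gpnmb was at -0.19 and Trem2 at -0.29. In saline lungs the list had a genotype median of -0.27, with 12 of 16 genes negative and 1 lower at p under 0.05.

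Of 19 markers of interstitial macrophages and monocytes, 16 had negative log2 fold changes (median -0.24) and 1 was lower at p under 0.05, against 3.97% of all genes. None was without library 18 or without library 19, where the medians were -0.24 and -0.14. In saline lungs 16 of the 19 were negative as well (median -0.12) and 2 were lower. Of 44 lysosome and phagosome genes, singled out after their values were seen, 41 were negative (median -0.11), with 3 lower and 1 higher at p under 0.05. Without libraries 12 and 13 the count was 10 lower and none higher. In saline lungs 37 of the 44 were negative (median -0.13), with 4 lower and none higher. There 6 were lower without overlap, against 0.835% of all genes. Chia1, the acidic chitinase that airway epithelium and macrophages secrete and also singled out afterwards, was at 121, 370, 147, 279 and 154 CPM against 64.2, 182, 127, 74.4 and 126 (-0.90 ± 0.27, adjusted p = 0.392). Chil3, a chitinase-like protein of alveolar macrophages, was at 2150 to 4270 CPM in WT OVA and 1920 to 3890 in Has2+/- OVA (-0.18 ± 0.45, adjusted p = 0.949).

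**Figure D4:**
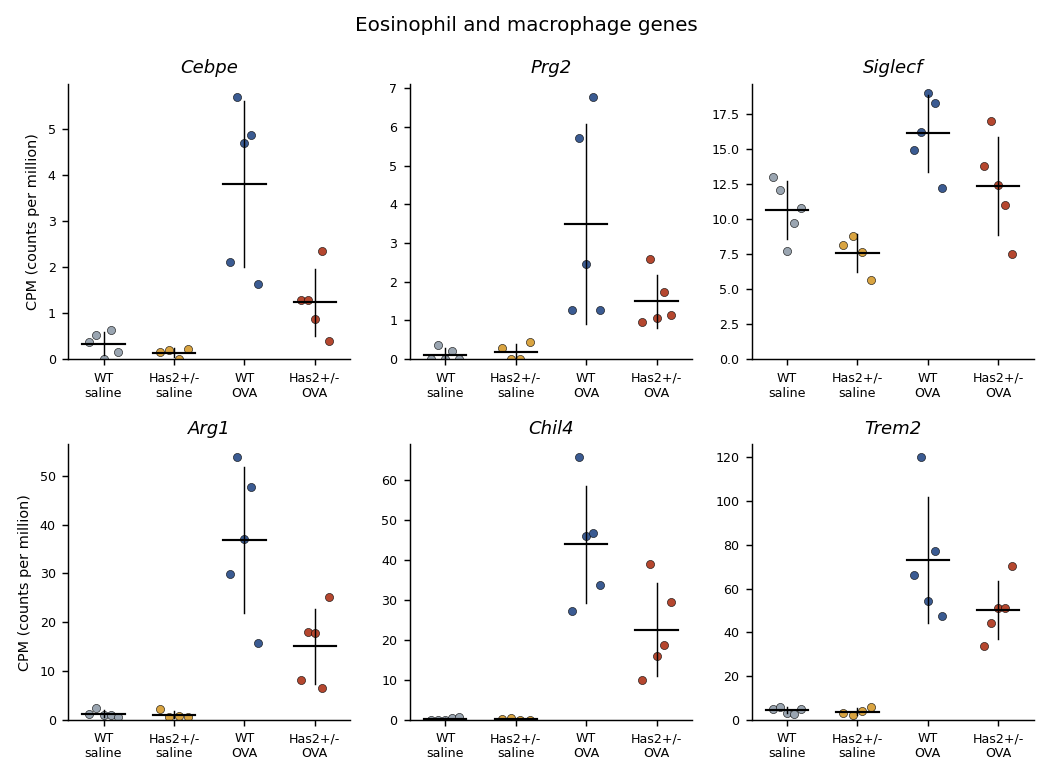
Eosinophil and macrophage genes by library. The vertical axis is CPM, points are libraries, and lines give the mean and SD of each group. The means of all 6 genes are higher in WT OVA than in WT saline lungs, and lower in Has2+/- OVA than in WT OVA with some overlap in each panel, as in Arg1 with 15.8 to 53.8 CPM against 6.57 to 25.1.

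B cell and plasma cell lists had medians on opposite sides of 0 in OVA lungs. All 16 B cell genes had positive log2 fold changes (median 0.13), 1 of them at p under 0.05: Ms4a1, which encodes CD20, at 14, 19.3, 12.7, 11.7 and 11.5 CPM against 24.0, 22.5, 16.9, 18.2 and 15 (0.48 ± 0.20, adjusted p = 0.571). Cr2, the complement receptor of B cells and follicular dendritic cells, was at 0.42 (adjusted p = 0.647). In saline lungs the B cell median was 0.21, with 15 of 16 genes positive and 1 higher at p under 0.05. In both settings the 16 genes include Ly6d, of the cluster whose values set libraries 12 and 13 apart. Plasma cell genes, singled out after their values were seen, had 15 of 16 negative in OVA lungs (median -0.20) and 5 lower at p under 0.05. Ighm, the heavy chain of IgM, was at 2480, 7500, 1880, 1510 and 1350 CPM in WT OVA and 1600, 1750, 1790, 1280 and 1250 in Has2+/- OVA (-0.94 ± 0.34, adjusted p = 0.512), where library 11 held 7500. Tnfrsf17, the survival receptor of plasma cells, was lower by 0.66 (adjusted p = 0.579). Without library 11, Ighm was at -0.24 and Tnfrsf17 at -0.43. Without libraries 12, 13, 18 and 19 the plasma cell median was -0.01, with 1 gene lower and 1 higher.

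The T cell median of 0.36 rested on library 18, which held Dntt. Trbc2, a T cell receptor constant gene, was at 9.55, 12.2, 8.59, 7.48 and 9.64 CPM in WT OVA and 10.9, 14.2, 9.78, 38.5 and 10.9 in Has2+/- OVA, and Lef1, a transcription factor of young T cells, at 17 to 24.1 against 19.4 to 23 in 4 libraries and 80.1 in library 18. Both were higher at p under 0.05 (0.84 and 0.73). Without library 18 the median over the 20 T cell genes was -0.02 and none passed. Gzma, granzyme A of killer cells and singled out afterwards, was higher by 0.61 (adjusted p = 0.516) in OVA lungs and at -0.56 (adjusted p = 0.68) in saline lungs (difference adjusted p = 1), and it was at 23.9 CPM in library 18 against 11.7 to 12.8 in the other Has2+/- OVA libraries.

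Genes of the cell cycle and mitosis had 41 of 45 positive log2 fold changes, a median of 0.26 and 3 higher at p under 0.05. Rrm1, a subunit of ribonucleotide reductase, was at 31.6, 34.1, 31.5, 38.8 and 31.1 CPM against 39.4, 44.1, 41.6, 58.5 and 29.5 (0.35 ± 0.13, adjusted p = 0.538). The others were Mcm4 of the replication helicase (0.23, adjusted p = 0.626), at 0.12 without library 18, and Tyms, thymidylate synthase (0.42, adjusted p = 0.63). Libraries 18 and 19 pulled in opposite ways: without 18 the median was 0.09 with none past p 0.05, and without 19 it was 0.44 with 16 of 45. In saline lungs the median was -0.23, and the difference between the settings had p under 0.05 in 7 of the 45 genes, a share that 4.1% of all genes met.

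The airway epithelium differed by cell type. Club cells, the secretory cells that clear toxicants and renew the airway lining, had 15 of 17 genes positive (median 0.19) and 6 higher at p under 0.05, against 3.75% of all genes. Scgb3a2, a secretoglobin, was at 74.7, 40.9, 68.1, 65.7 and 57.7 CPM in WT OVA and 124, 86.4, 79.2, 102 and 89.5 in Has2+/- OVA (0.65 ± 0.20, adjusted p = 0.411). Cckar, a cholecystokinin receptor, was at 35.4, 32.2, 34.8, 33.0 and 30.9 CPM against 41.0, 41.4, 38.8, 40.4 and 39.9 (0.28, adjusted p = 0.611). The groups overlapped for neither gene, and WT saline lungs held 125 to 180 CPM of Scgb3a2 and 41.4 to 55.5 CPM of Cckar. Bpifa1, an antimicrobial airway protein (0.49), Aldh3a1, an aldehyde dehydrogenase (0.38), Cyp2f2, a P450 of club cells (0.26), and Muc1 (0.19) made up the 6, while the club cell secretoglobin Scgb1a1 was at 0.16 ± 0.17 (adjusted p = 0.845). The saline median was 0.21 with 1 gene higher, and without libraries 12 and 13 the OVA count was 3 of 17.

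Goblet cells, which make airway mucus, had a negative median (-0.19). At p under 0.05, 3 of 17 genes were lower and none higher, against 3.97% and 3.75% of all genes. Spdef, the transcription factor of goblet cells, was at 8.91, 9.39, 9.61, 10.3 and 9.28 CPM in WT OVA and 4.32, 7.76, 6.81, 5.01 and 9.01 in Has2+/- OVA (-0.54 ± 0.19, adjusted p = 0.505), and it was lower in saline lungs as well (-0.73, adjusted p = 0.639). Only the highest Has2+/- OVA library reached the WT OVA range. Itln1, intelectin, was lower by 0.62 (adjusted p = 0.54) and Scin, an actin-severing protein, by 0.45 (adjusted p = 0.622). The gel-forming mucin Muc5ac was at 147, 162, 276, 258 and 236 CPM against 77.3, 219, 174, 110 and 191 (-0.49 ± 0.36, adjusted p = 0.766), a difference within the spread of the libraries. Fcgbp (-0.53, adjusted p = 0.692) and the anion exchanger Slc26a4 (-0.78, adjusted p = 0.65) were alike in this. Without library 11, Itln1 was at -0.37 and Slc26a4 at -0.24.

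Genes that build cilia and centrosomes were among the leading ones that were higher. Ift80, of the intraflagellar transport complex that carries cargo along the cilium, was at 27.4, 28.0, 28.2, 27.8 and 27.8 CPM in WT OVA and 32.0, 40.8, 33.7, 42.7 and 34.5 in Has2+/- OVA (0.40 ± 0.08, adjusted p = 0.176). Alms1, of the centrosome and basal body, was at 41.4, 33.0, 41.9, 41.9 and 40.9 CPM against 48.5, 49.5, 46.5, 53.5 and 55.4 (0.35 ± 0.07, adjusted p = 0.189). Neither overlapped. Cluap1, also of the transport complex, was at 0.51 ± 0.13 (adjusted p = 0.31). The list of intraflagellar transport, basal body and BBSome genes, singled out after its values were seen, had 46 of 55 positive (median 0.12), 9 higher and none lower. Without libraries 12, 13, 18 and 19 it had 4 higher and a median of 0.08. In saline lungs it also had 46 of 55 positive (median 0.085), with 8 higher and none lower. The axoneme and dynein genes of ciliated cells had 28 of 35 positive (median 0.10) and 1 higher, Ccdc39 (0.31). In saline lungs they had 32 of 35 positive (median 0.24) and 6 higher. Foxj1, the master regulator of motile cilia, was at -0.40 ± 0.20 (adjusted p = 0.652). Long transcripts of chromatin regulators, which share no ciliary role, had a median of 0.03 with 1 of 40 higher, and splicing and nuclear RNA genes, many of them kept in the nucleus, had a median of 0.10 with 7 of 34 higher. In saline lungs the chromatin list had 8 of 40 higher and the nuclear RNA list 13 of 34, against 3.88% of all genes. The part of these lists in the ciliary result was not tested.

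Other epithelial lists gave little beyond single genes. Of 7 genes tested from the neuroendocrine and tuft cell list, Sox9, which is not particular to those cells, was lower (-1.14 ± 0.46, adjusted p = 0.56). It was at 4.03, 21.4, 4.91, 9.22 and 3.27 CPM against 2.56, 5.73, 3.32, 2.50 and 5.56. Its highest value was that of library 11, without which the log2 fold change of Sox9 was -0.47. The 4 basal cell genes tested had a median of -0.26, with Krt5 at -0.30 (adjusted p = 0.843) and Trp63 at -0.05 (adjusted p = 0.987). Of 34 genes of xenobiotic metabolism and the NRF2 response, 5 were higher and 2 lower at p under 0.05, and without libraries 12 and 13 it was 2 and 2. Cyp2a5, a P450, was at 24.6, 26.7, 26.4, 27.3 and 29.5 CPM against 41.0, 34.2, 45.3, 32.6 and 43.1 without overlap (0.54, adjusted p = 0.571), and Hmox1, heme oxygenase of macrophages, was lower by 0.43 (adjusted p = 0.557). Aqp4, a water channel of airway epithelium, was higher by 0.57 in OVA lungs, without overlap (adjusted p = 0.473), and by 0.57 in saline lungs (adjusted p = 0.583). Cyp2a5, Hmox1 and Aqp4 were singled out after their values were seen.

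**Figure D5:**
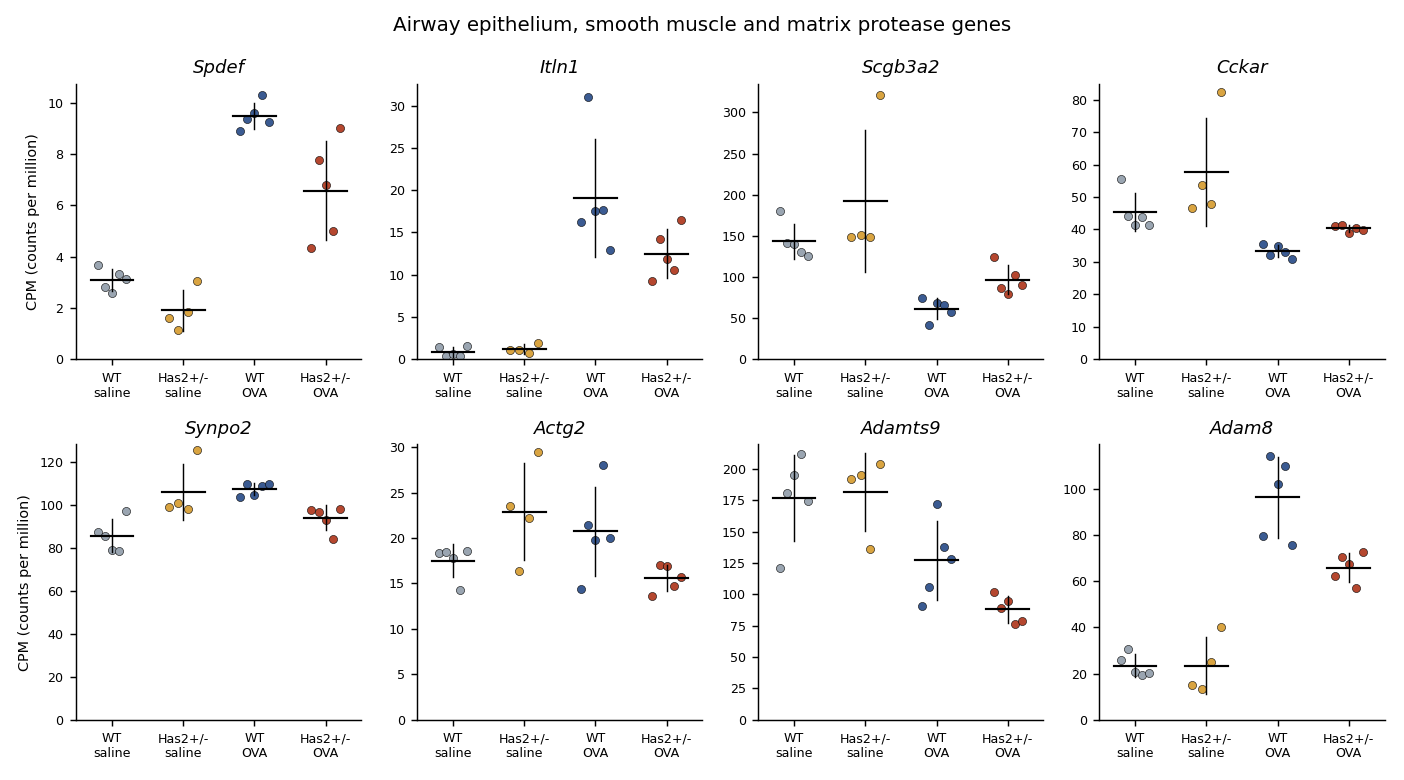
Airway epithelium, smooth muscle and matrix protease genes by library. The vertical axis is CPM, points are libraries, and lines give the mean and SD of each group. Scgb3a2 and Cckar are higher, and Synpo2 and Adam8 lower, in every Has2+/- OVA library than in WT OVA, while Synpo2 and Actg2 are higher in Has2+/- than in WT saline lungs.

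Matrix genes, the frame of airway remodelling, were mostly within the spread. Thbs1, thrombospondin 1, which activates latent TGF-beta, was at 210, 278, 232, 255 and 218 CPM in WT OVA and 140, 192, 182, 158 and 141 in Has2+/- OVA (-0.55 ± 0.12, adjusted p = 0.19), without overlap. In saline lungs it was higher in Has2+/- by 0.27 (adjusted p = 0.711), and the difference between the settings was -0.82 ± 0.17 (adjusted p = 1). Of 32 genes of interstitial collagens and their cross-linking, 25 were negative (median -0.10) and 3 were lower at p under 0.05, namely Col14a1 (-0.40, adjusted p = 0.443), Col6a2 (-0.28, adjusted p = 0.56) and Col18a1 (-0.25, adjusted p = 0.571). Without libraries 12, 13, 18 and 19 none was, and the median was 0.07. Col6a5, a collagen VI chain that OVA raised by 4.17 on the log2 scale in WT lungs, was at 67.5, 186, 66.9, 131 and 63.3 CPM against 32.2, 75.9, 49.8, 37.1 and 40.8 (-1.13 ± 0.28, adjusted p = 0.31), with 1 heterozygote in the WT range. Of 38 matrix glycoproteins, 4 were lower (Thbs1, Spp1, Emilin1 and Fbn1) and 1 was higher (Thbs3, 0.23, adjusted p = 0.572). Without libraries 12, 13, 18 and 19, 1 was lower and 2 were higher.

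Matrix proteases and their inhibitors had a lower median (-0.21), with 24 of 31 negative. At p under 0.05, 6 were lower, against 3.97% of all genes. Adamts9, which cuts proteoglycans, was at 91.0, 106, 172, 138 and 128 CPM against 102, 89.4, 94.4, 76.7 and 78.4 (-0.53 ± 0.16, adjusted p = 0.394). Adam8, a sheddase of activated leukocytes, was at 79.6, 114, 102, 110 and 75.7 CPM against 62.1, 70.4, 67.3, 57.0 and 72.5 without overlap (-0.55 ± 0.20, adjusted p = 0.505). Adam19, Mmp14, Mmp23 and Mmp25 completed the 6. The count was 3 without libraries 12 and 13 and 0 without 12, 13, 18 and 19. The high WT values of Adamts9 were those of libraries 12 to 14, and its log2 fold change without 12 and 13 was -0.30 (adjusted p = 0.79).

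The TGF-beta list, of ligands, receptors and targets, had a median of -0.05. At p under 0.05, 5 of 40 were lower and 1 higher, against 3.97% and 3.75% of all genes. Without libraries 12, 13, 18 and 19 it had 1 lower and 1 higher. Tgfb1, the ligand, was at 151, 176, 139, 143 and 138 CPM in WT OVA and 131, 127, 140, 118 and 121 in Has2+/- OVA (-0.23 ± 0.09, adjusted p = 0.555), with 1 heterozygote in the WT range. Id1, a target of BMP signals, was lower by 0.42 (adjusted p = 0.493), the BMP receptor Acvr1 by 0.24 (adjusted p = 0.542) and the inhibitor Smad6 by 0.31 (adjusted p = 0.579). Smad3, which carries the TGF-beta signal to the nucleus, was higher without overlap by 0.14 ± 0.05 (adjusted p = 0.432).

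Smooth muscle genes had medians on opposite sides of 0 in the 2 settings. In OVA lungs 17 of 25 were negative (median -0.12) and 4 were lower at p under 0.05, against 3.97% of all genes. In saline lungs the median was 0.12 with 5 higher and 1 lower, against 3.88% and 3.06% of all genes. The difference between the settings had p under 0.05 in 8 of 25, against 4.1% of all genes. Synpo2, an actin-bundling protein of contractile cells, was at 104, 110, 105, 109 and 110 CPM in WT OVA and 97.9, 97.0, 93.3, 84.4 and 98.3 in Has2+/- OVA without overlap (-0.19 ± 0.07, adjusted p = 0.538), and it was at 0.30 in saline lungs (adjusted p = 0.419, difference adjusted p = 1). Actg2, the gamma actin of smooth muscle, was at -0.42 (adjusted p = 0.516) and 0.38 (adjusted p = 0.68), Myh11, its myosin, at -0.29 (adjusted p = 0.603) and 0.24 (adjusted p = 0.772), and Tagln, transgelin, at -0.17 (adjusted p = 0.642) and 0.22 (adjusted p = 0.661). No gene had an adjusted p under 0.05 for the difference between the settings. Without libraries 12 and 13 the median was -0.13 with 1 gene lower, Synpo2.

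Fast-response and hormone-driven genes had more lower than higher members. Of 44 immediate-early transcription factors and partners, singled out after their values were seen, 34 were negative (median -0.18), 9 were lower and none higher at p under 0.05. Without libraries 12, 13, 18 and 19, 3 were lower and the median was -0.12. In saline lungs 34 of the 44 were negative too (median -0.10), with 7 lower and none higher at p under 0.05. Jun was at 326 to 342 CPM in WT OVA and 227 to 296 in Has2+/- OVA (-0.32 ± 0.09, adjusted p = 0.321). Sik1, a kinase induced by cyclic AMP (-0.37, adjusted p = 0.321), and Mcl1, a survival factor (-0.19, adjusted p = 0.379), did not overlap either. Glucocorticoid-responsive genes had a median of -0.28, with 18 of 23 negative and 3 lower: Cebpd, the clock gene Per1 (-0.56, adjusted p = 0.505) and Ddit4, an inhibitor of mTOR (-0.69, adjusted p = 0.571). Cdkn1a, the cell cycle inhibitor p21, was at -0.66 (adjusted p = 0.652) and Nr3c1, the glucocorticoid receptor, at 0.16 ± 0.08 (adjusted p = 0.658), both without overlap. The saline median of this list was -0.23. Clock genes shifted with library 19: Per3 was at 104 CPM there against 15.3 to 27.6 in the other Has2+/- OVA libraries and 11.9 to 24.6 in WT OVA. The clock list, with 4 genes higher at p under 0.05, had none without library 19.

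Some lists followed other tissue or RNA in single libraries. Skeletal muscle genes summed to 149 CPM in library 18 and to 8.84 to 13.4 in the other OVA libraries. Myh4, a fast myosin, was at 39.8 CPM there and at most 0.368 elsewhere, and without that library the list's median was -0.08 over 8 genes. Adipocyte genes had a median of -0.25 in OVA lungs with none past p 0.05, but 0.65 without libraries 12 and 13, of which 12 held 53.8 CPM of Fabp4 against 12.5 to 29.1 in the other OVA libraries. In saline lungs the adipocyte median was 1.65 with 10 of 11 higher. The mitochondrially encoded genes had a median of 0.29, which was 0.08 without library 19, and the red cell and platelet list one of 0.15 with no gene past p 0.05. Cartilage was represented by Chad alone (0.21, adjusted p = 0.885).

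The genotype difference was then read beside that of the saline lungs, which are other libraries but share the estimate of the spread with the OVA lungs. At p under 0.05, 1006 genes differed in saline lungs (6.94%; 3.88% higher and 3.06% lower), and 138 were in both lists (0.952% of genes tested), 12.3% of the OVA list and 13.7% of the saline list. Of these, 117 had the same sign (0.807% of genes tested). A run of neighbours on chromosome 10, singled out after its values were seen, included 2 of them, Slc18b1 and Vnn3. Slc18b1, a polyamine transporter, was at 10.8, 9.94, 11, 9.39 and 12.6 CPM in WT OVA and 15.2, 14.6, 14.7, 14.2 and 14.2 in Has2+/- OVA (0.44, adjusted p = 0.321; 0.33 in saline). Vnn3, a pantetheinase, was higher by 1.02 ± 0.26 (adjusted p = 0.31; 0.87 in saline), and Vnn1, its relative, by 0.88 (adjusted p = 0.321), while in saline lungs it was at 0.28 (adjusted p = 0.902). None of the 3 overlapped between the OVA groups.

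Around Has2 itself, 12 of 149 genes tested within 20 megabases had p under 0.05 in OVA lungs (8.05%), against 7.7% on other chromosomes, and 18 (12.1%) in saline lungs, against 6.86%. Within 5 megabases it was 3 of 38 (7.89%) in OVA lungs, and 1 (2.63%) without libraries 12 and 13. Col14a1 lies 1.27 megabases and Atf4 23.6 megabases from Has2. The genes past p 0.05 in both settings were Psca, Ly6e and Fam84b. Fam84b, 4.16 megabases from Has2, was higher by 0.26 (adjusted p = 0.557) in OVA and 0.23 (adjusted p = 0.704) in saline lungs.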

How the data were processed

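RNA of whole lung from 19 mice was sequenced. Per the labels, reads were aligned to mm10 and counted in CLC Genomics Workbench; the sources differ on the library kit (rRNA depletion or mRNA selection). The authors deposited whole-number counts for 49585 genes, and the libraries held 4446534 to 7048676 counts. The 38 further columns, which repeat these libraries after scaling or transformation, were left out. Columns were grouped by the genotype and treatment in their names.

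The counts were analysed in edgeR 4.0.16 (R 4.3.3): filterByExpr left 14495 genes, libraries were scaled by TMM, and a quasi-likelihood model of the 4 group means was fitted to all 19 libraries. A call needed a fold change over 1.2 and a Benjamini-Hochberg adjusted p below 0.01. The p-values measure only the spread between these libraries. The procedure was tested on simulated data. Genes below the filter were compared by an exact permutation test (scipy 1.17.1). Its p-values are printed unadjusted. Adjusted over the 6 genes so tested, they were 0.321 or 0.968. Alternatives were DESeq2 1.42.0, other scaling and filters, the OVA libraries alone and leaving out libraries.

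The genes named were Has2, the 30 of smallest p (immunoglobulin and T cell receptor segments, predicted genes and heat shock or ER chaperones counted only), up to 6 members of smallest p and the defining markers of each list described, and genes within 20 megabases of Has2 with p under 0.05 in both settings. Lists were described if among the 8 lowest or 8 highest medians, or if the study's question asked for them. A few genes that the rule would name are not reported here. Genes and lists outside this rule were chosen after their values were seen. The comparison and the lists were chosen with earlier results of these data known.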

Additional observations from a re-analysis of the deposited data

Results flagged for a closer look

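In each group of 5 OVA libraries, the highest or lowest library was compared with its nearest neighbour by Dixon's ratio for 189 genes, which gave 378 groups. Chance would flag about 1 in 20 independent groups, or 19, and 36 stood out. Many of these genes were chosen by their values in the same libraries, and several share a cell type. The 36 against 19 is therefore a description and no test. Library 18 was high in 11 of them and library 19 in 10. The muscle and T cell lists were described for medians that rested on library 18, so its flags for their genes add nothing new.

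In library 18 of Has2+/- OVA these were the muscle genes Myh4 at 39.8 CPM, Atp2a1 at 27.9, Actn3 at 6.26, Myh2 at 10.5 and Tnnt3 at 12.7, the T cell genes Trbc2 at 38.5, Lef1 at 80.1, Tcf7 at 57.0 and Trbc1 at 31.5, granzyme A (Gzma) at 23.9, and the ciliary gene Ahi1 at 19.6. In library 19 they were the mitochondrially encoded mt-Atp8 at 353 CPM, mt-Nd2 at 1000, mt-Cytb at 2150 and mt-Nd5 at 2090, the clock genes Per3 at 104 and Dbp at 132, and Siah2 at 20.3, Cidea at 4.98, Chad at 16.7 and Il17a at 0.383. Il17a was at the detection limit, with 1, 1, 1, 1 and 2 counts in libraries 15 to 19, so its flag carries no weight. Library 15 was high for Il5ra at 7.04 CPM.

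Among the WT OVA lungs, library 11 was high for Itln1 at 31.1 CPM, Slc26a4 at 233, Ighm at 7500 and C2cd2l at 86.5, and low for Alms1 at 33.0. Library 10 was low for Siah2 at 21.0 CPM and Zfp366 at 40.1. Library 12 was high for Retn at 9.21 CPM. Library 13 stood apart for Nemp1 at 6.78 CPM, mt-Cytb at 1230, Tyms at 12.2 and Mzb1 at 154, and library 14 was high for Avil at 4.0 and Myh2 at 0.728. The genotype difference did not differ between OVA and saline lungs at an adjusted p under 0.05 for any gene.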

How the results depend on the processing

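The fit called 0 genes between the OVA genotypes, and DESeq2 called 9. Leaving out each library in turn gave 0 to 5 calls, the 5 without library 10 and 1 without library 12. In alternatives chosen after seeing the data, 2 genes were called without libraries 12 and 13 and 3 without 12, 13, 18 and 19; Psca, in both, and Ly6e, in the first, belong to the cluster whose values singled out 12 and 13 and so are no support. In the latter set 671 genes had an unadjusted p under 0.05 against 1120. For the 185 named genes, 3265 alternative values kept their direction and side of the threshold, 31 (18 genes) changed sign and 8 (7 genes) passed the threshold; the cause was not tested. Leaving out each library in turn moved the log2 fold changes of Avil from -0.65 to 0.20, Trp63 from -0.24 to 0.08, Plin4 from -0.38 to 0.03, Adipoq from -0.69 to 0.28, Fabp4 from -0.44 to 0.20, Myh4 from -0.65 to 6.15, Actn3 from -0.03 to 1.68, Tnnt3 from -0.03 to 1.32, Trbc1 from -0.15 to 0.90 and Muc5b from -0.01 to 0.16; library 18 set the low end for the muscle genes and Trbc1, library 12 the high end for Plin4, Adipoq and Fabp4, library 14 that of Avil, library 13 that of Trp63 and library 19 the low end of Muc5b. Without 12 and 13, Retn was at 0.13, Plin4 at 0.10, Adipoq at 0.86 and Fabp4 at 0.47. Without 12, 13, 18 and 19, Plin4 was at 0.07, Adipoq at 0.61, Fabp4 at 0.24, Myh4 at -1.42, Actn3 at -0.26, Myh2 at -1.56, Tcf7 at -0.00, Trbc1 at -0.05, mt-Nd5 and Slc4a1 at -0.01, Fbn1 at 0.01, Fmod at 0.04 and Mzb1 at 0.08. Of the 67 lists, 23 had a median that changed sign under some alternative. No paired analysis was possible because the columns carry no replicate numbers. Has2 and the type 2 cytokines had too few counts for the fit.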

Other observations

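Vessels and translation held smaller differences between the OVA genotypes. At p under 0.05, 3.97% of all genes were lower and 3.75% were higher in OVA lungs. Of 10 lymphatic endothelial genes, 8 had negative log2 fold changes and 3 were lower at p under 0.05: Pdpn, podoplanin (-0.27, adjusted p = 0.493), Stab1, a scavenger receptor (-0.23, adjusted p = 0.528), and Tbx1 (-0.32, adjusted p = 0.603). Without libraries 12 and 13, 1 of the 10 was lower. Of 25 capillary and arterial genes, Plvap was lower (-0.32, adjusted p = 0.598), while Aplnr, the apelin receptor, was higher without overlap (0.25, adjusted p = 0.603) and Bmx was higher (0.51, adjusted p = 0.571). Ribosomal protein genes had a median of -0.07, with 64 of 77 negative and 5 lower in OVA lungs. Without library 19, 1 was lower, and without libraries 12, 13, 18 and 19, 0 were. In saline lungs their median was -0.12 with 26 lower, against 3.06% of all genes. Among YAP and SRF targets, 23 of 29 were negative and 5 were lower, including Myl9, a myosin light chain (-0.36, adjusted p = 0.473). Without library 18, 3 of these targets were lower. These genes were chosen after their values were seen.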
